A study of Mus musculus with 2 samples.

Results

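Transcript levels of 10 genes encoding subunits of BAF chromatin remodelling complexes were compared between sorted mouse intestinal cells with and without a deletion of Srcap. The genes were Smarcd3, its paralogs Smarcd1 and Smarcd2, and 7 further subunit genes (Smarca4, Smarca2, Smarcb1, Smarcc1, Smarcc2, Smarce1 and Arid1a). They were taken by symbol from the 17840 genes of the deposited tables, and all 10 were present. Smarcd3 was selected on its FPKM values in these same 2 libraries, being far lower in the KO library, and the others because their products belong to the same complexes. Its difference between the genotypes is therefore a description of the values it was chosen by.

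The Srcap KO group was 1 library from Srcap flox/flox; Lgr5-Cre+ mice given tamoxifen, and the WT group was 1 library from Srcap+/+; Lgr5-Cre+ mice. Cre is thus driven by Lgr5 in both groups, so that deletion is limited to the Lgr5-positive cells and what derives from them. Cells were sorted from dissociated crypts by GFP intensity and were not cultured. The labels do not say how old the mice were, how many went into each library or which exons are flanked by loxP sites. Levels are in FPKM, fragments per kilobase of transcript and per 1000000 mapped fragments, so they can be compared between genes. With 1 library per genotype there was no test between genotypes and no replicate error. Every difference below is one between these 2 libraries.

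BAF complexes use the energy of ATP to slide or eject nucleosomes, and thereby open enhancers and promoters. One of 2 ATPases is joined to a scaffold of core subunits, and most positions are filled by one of several paralogs. The Smarcd genes encode the BAF60 subunits, which link the complex to transcription factors and nuclear receptors. Smarcd3 encodes BAF60c, known from heart and skeletal muscle development, Smarcd2 encodes BAF60b, known from granulocyte maturation, and Smarcd1 encodes BAF60a. SRCAP is the ATPase of a different remodeller, which places the histone variant H2A.Z into nucleosomes.

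Srcap itself was at 11.3 FPKM in the KO library and 20.4 FPKM in the WT library, 55.7% of the WT level. Transcripts of another cell type were abundant in the sorted cells. Lgr5 was at 2.17 FPKM in the KO library and 5.9 FPKM in the WT library, while 10 Paneth cell markers summed to 25869 and 42821 FPKM. Steps between low values put the reads assigned to genes at about 16700000 in the KO library and 17300000 in the WT library. From these, approximate read numbers per gene and 95% exact (Clopper-Pearson) intervals of the KO to WT ratio were computed. The intervals cover counting error only, and not the spread between mice.

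Smarcd3 lies on the minus strand of chromosome 5, from 24592622 to 24624456 (Entrez 66993, mm10). It has 2 protein-coding transcripts in GENCODE M21, which share their last base and start at 24602012 (Smarcd3-201, the principal form, 1735 nt) and 24624411 (Smarcd3-208, 1712 nt). The sequence before the start of the principal form is shown because Smarcd3 is the one of the 10 genes whose level differed most. It is set beside that of Smarcd1, whose level was close to equal in both libraries. Both come from the RefSeq promoter table of GRCm38.p6, the assembly also called mm10, and bases inside the principal GENCODE transcript were left off. Capitals mark GGGCGG on either strand (a GC box) and CANNTG (an E-box).
Smarcd3, chr5:24602013-24602252, minus strand: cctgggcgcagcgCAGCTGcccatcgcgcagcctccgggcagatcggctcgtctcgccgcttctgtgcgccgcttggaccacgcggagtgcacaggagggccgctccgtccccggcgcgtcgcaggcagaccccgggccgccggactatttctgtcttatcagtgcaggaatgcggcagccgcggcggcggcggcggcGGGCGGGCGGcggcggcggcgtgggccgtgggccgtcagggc
Smarcd1, chr15:99702037-99702128, plus strand: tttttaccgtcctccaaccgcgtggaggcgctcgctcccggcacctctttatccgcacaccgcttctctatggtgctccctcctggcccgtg
The 240 bases before Smarcd3-201 held 38 CpG dinucleotides, 2 overlapping GC boxes and 1 E-box. Over the full 250 bases before the RefSeq start, Smarcd3 was 76.0% G or C, higher than 96.7% of 32851 such windows in the table. This is not particular to Smarcd3 among the 10 genes. Smarcc2 was at 80.8% with 40 CpG dinucleotides, and a window of Arid1a was at 81.6%, although neither gene differed by 2-fold. That Arid1a window held 7 GC boxes, the Smarca4 window 3, the Smarca2 window 2 and the Smarcc2 window 0. Smarcd1 was at 71.2% with 29 CpG dinucleotides, and the median window at 52.4% with 6. Most of the Smarcd1 window lies inside its principal transcript. The 92 bases before that transcript were 63.0% G or C with 9 CpG dinucleotides. They held 0 GC boxes, and the full Smarcd1 window held 1. A GC box is found in 32.7% of all windows and an E-box in 66.2%. Neither window held the nuclear receptor half-site AGGTCA on either strand, which is found in 14.02% of windows. The table's window for Smarcd2 starts at a shorter form inside the gene and is not shown. The Smarcd3 window also lies inside its gene, since Smarcd3-208 starts further out, at 24624411. No sequence before that outer start is shown.

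Smarcd3 was at 2.31 FPKM in the KO library and 57.4 FPKM in the WT library. The KO level was 4.02% of the WT level, a 24.9-fold difference. These levels correspond to about 67 and 1721 reads, and the counting interval of the fold runs from 19.4 to 32.2. After adding 1 FPKM to both values, which makes differences of weakly expressed genes smaller, the log2 ratio was -4.14. By rank, Smarcd3 was the 10065th most abundant of all genes in the KO library and the 1535th in the WT library. Among the 10 subunit genes it was the lowest, in place 10, in the KO library and held place 3 in the WT library, behind Smarcd2 and Smarcb1. In bulk samples, fewer cells of a type and less RNA per cell cannot be told apart.

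The rule for a call was a log2 ratio of at least 1 in size with this pseudocount, and at least 1 FPKM in the library with more. By this rule 1 of the 10 subunit genes, Smarcd3, was lower, and 9 lay within 2-fold. Over all 11784 genes that could be called, 0.416% were lower and 2.61% were higher, which is given as the background of a contrast that also chose Smarcd3. Only 1 of these genes, Rxrg, had a lower log2 ratio than Smarcd3, although 5 had with a pseudocount of 0.1 FPKM.

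**Figure D1:**
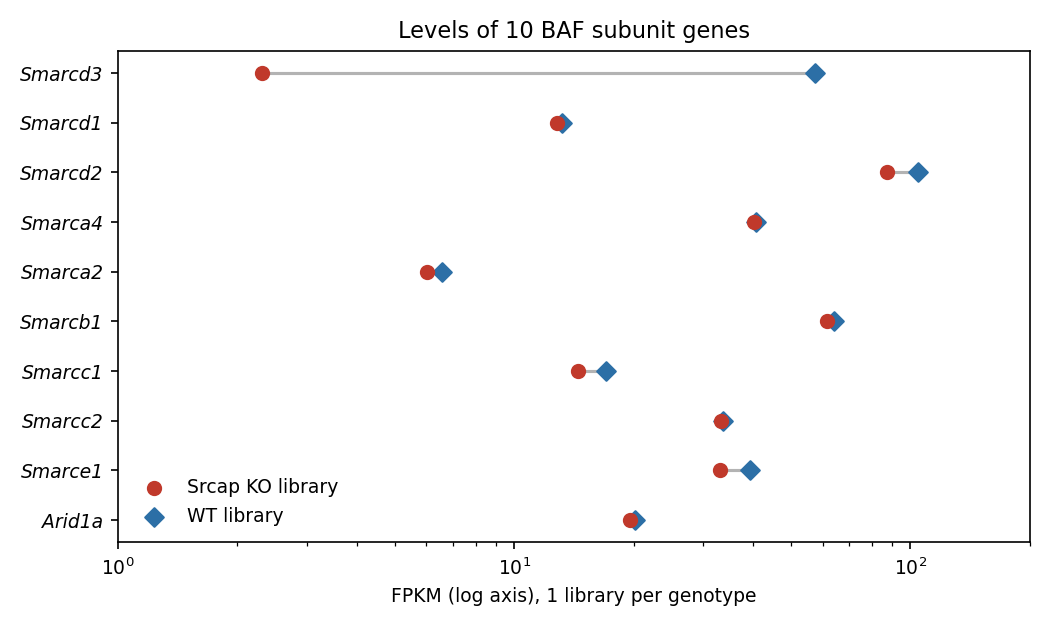
Levels of the 10 subunit genes in FPKM on a log axis, with a circle for the single Srcap KO library and a diamond for the single WT library, and a line joining both. Smarcd3 spans 2.31 to 57.4 FPKM, while the symbols of the other 9 genes touch or lie close together.

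The paralogs of Smarcd3 did not share its difference. Smarcd2 (chromosome 11, 106263171 to 106272998) was at 87.1 FPKM in the KO library and 104 FPKM in the WT library, with a log2 ratio of -0.26. Smarcd1 (chromosome 15, 99702287 to 99713995) was at 12.8 FPKM in the KO library and 13.2 FPKM in the WT library, with a log2 ratio of -0.04. The counting interval of Smarcd1, from -0.20 to 0.10 on the log2 scale, includes equal levels, and that of Smarcd2, from -0.32 to -0.20, does not. Neither interval includes a 2-fold difference.

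The make-up of the BAF60 transcripts therefore differed between the libraries. Summed over the 3 paralogs, their level was 102 FPKM in the KO library and 175 FPKM in the WT library, or 58.4%. Smarcd3 held 2.26% of this sum in the KO library and 32.8% in the WT library. Smarcd2 held 85.2% in the KO library and 59.6% in the WT library, and Smarcd1 held 12.5% and 7.55%. The larger shares of Smarcd2 and Smarcd1 came with no higher level of either. Their own sum was 99.9 FPKM in the KO library and 117.6 FPKM in the WT library. Smarcd3 was 4.34 times as abundant as Smarcd1 in the WT library, whereas Smarcd1 was 5.54 times as abundant as Smarcd3 in the KO library.

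**Figure D2:**
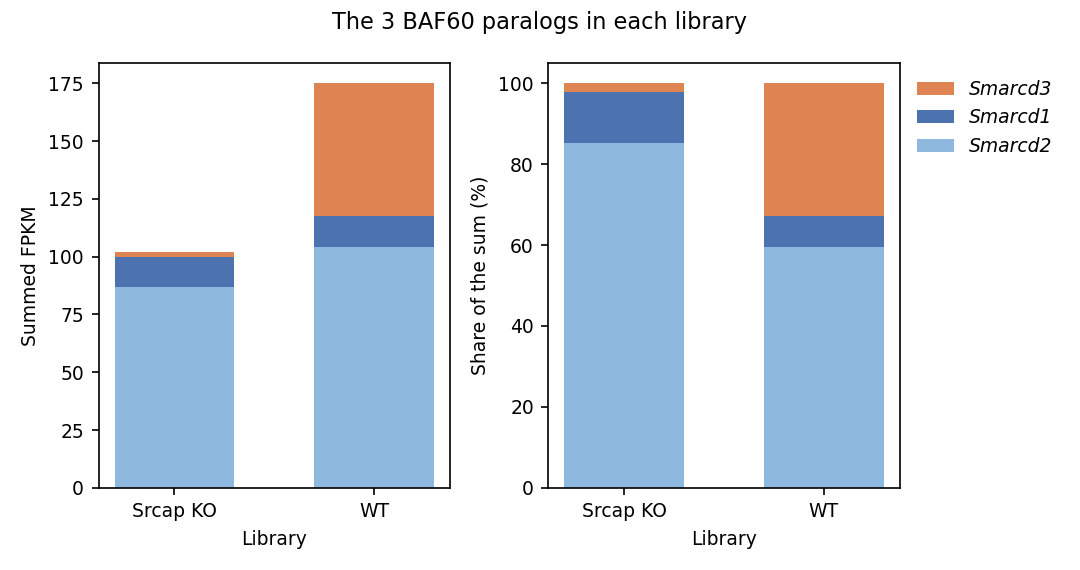
Stacked bars of Smarcd3, Smarcd1 and Smarcd2 in the Srcap KO and WT libraries, as summed FPKM (left panel) and as a percentage of the sum (right panel), 1 library per bar. The Smarcd3 segment makes up 2.26% of the KO bar and 32.8% of the WT bar.

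The BAF60 genes are distinct at the length of the reads. Of 1894 different 50-base stretches in the protein-coding Smarcd3 transcripts, 0 occur in Smarcd1 or Smarcd2 transcripts. The end of Smarcd3 overlaps its neighbour Chpf2, which is on the opposite strand, over 1777 bases of the genome. Of the Smarcd3 stretches, 414 (21.9%) also lie in Chpf2 transcripts, read in reverse. Chpf2, a chondroitin sulfate synthesis gene, was at 7.42 FPKM in the KO library and 6.14 FPKM in the WT library. Whether strand was used in counting is not stated in the labels. Without it, an unknown and possibly large part of the about 67 Smarcd3 reads of the KO library could not be told apart from Chpf2 reads. Chpf2 had about 665 reads in the KO library and 570 in the WT library. The fold of Smarcd3 and its counting interval do not allow for this.

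The catalytic subunits were at nearly the same level in both libraries. Smarca4, which encodes the ATPase BRG1, was at 40.2 FPKM in the KO library and 40.8 FPKM in the WT library. Smarca2, which encodes the alternative ATPase BRM, was at 6.01 FPKM in the KO library and 6.58 FPKM in the WT library. Smarca4 thus made up 87.0% of the ATPase transcripts in the KO library and 86.1% in the WT library. The counting intervals of both genes include equal levels.

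Among the core subunits, 2 showed differences beyond counting error, though far from 2-fold. Smarcc1, which encodes the scaffold protein BAF155, was at 14.5 FPKM in the KO library and 17.0 FPKM in the WT library, a log2 ratio of -0.22. Smarce1, which encodes the DNA-binding subunit BAF57, was at 33.0 FPKM in the KO library and 39.3 FPKM in the WT library, a log2 ratio of -0.24. Their intervals without the pseudocount run from -0.34 to -0.13 for Smarcc1 and from -0.35 to -0.15 for Smarce1. Smarcc2, which encodes the BAF155 paralog BAF170, was at 33.3 FPKM in the KO library and 33.7 FPKM in the WT library. Smarcb1, a core subunit known as a tumour suppressor, was at 61.4 FPKM in the KO library and 64.2 FPKM in the WT library. Arid1a, the large subunit that marks the canonical BAF form, was at 19.6 FPKM in the KO library and 20.2 FPKM in the WT library. The intervals of Smarcc2, Smarcb1 and Arid1a include equal levels.

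The 9 genes other than Smarcd3 had log2 ratios from -0.26 to -0.02, with a median of -0.06. The median over all 11784 genes was 0.02, and over the 5766 genes that reached 10 FPKM in each library it was -0.02. A ratio within the range of the 9 genes was found for 34.1% of all genes. All 9 ratios were below 0 with the values as deposited, but only 4 were after rescaling both libraries to the same sum and 5 after doing so without Paneth cell markers. No common direction is therefore claimed for them. Summed, the 9 genes reached 308 FPKM in the KO library and 339 FPKM in the WT library.

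By level, the order of the 10 genes was Smarcd2, Smarcb1, Smarca4, Smarcc2, Smarce1, Arid1a, Smarcc1, Smarcd1, Smarca2 and Smarcd3 in the KO library. In the WT library it was Smarcd2, Smarcb1, Smarcd3, Smarca4, Smarce1, Smarcc2, Arid1a, Smarcc1, Smarcd1 and Smarca2. Apart from Smarcd3, the orders differ only in Smarcc2 and Smarce1. With no replicates, it is not known which neighbours in these orders differ beyond the spread between mice.

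The rest of the BAF family was examined through 21 further subunit genes, of which 19 reached 1 FPKM in at least 1 library. Of these 19, 0 were past 2-fold in either direction, against 3.03% of all genes, and their median log2 ratio was -0.01. Bcl7a and Bcl7c, which encode small accessory subunits, had the lowest ratios. Bcl7a was at 6.24 FPKM in the KO library and 8.54 FPKM in the WT library, a log2 ratio of -0.40. Bcl7c was at 51.8 FPKM in the KO library and 68.1 FPKM in the WT library, a log2 ratio of -0.39, whereas the paralog Bcl7b was at 21.1 FPKM in each. Bcl11a, a zinc finger protein associated with BAF, was at 6.44 FPKM in the KO library and 7.58 FPKM in the WT library.

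Subunits that define the other complex forms were at similar levels in both libraries. Of the ARID subunits, Arid1b, the Arid1a paralog, was at 4.9 FPKM in each library, and Arid2 of the PBAF form was at 4.07 FPKM in the KO library and 4.41 FPKM in the WT library. Arid1a held 68.6% of the ARID transcripts in the KO library and 68.5% in the WT library. Pbrm1, the polybromo subunit of PBAF, was at 5.34 FPKM in the KO library and 4.42 FPKM in the WT library, a log2 ratio of 0.23, while the PBAF subunits Brd7 and Phf10 had ratios of -0.08 and -0.03. Brd9, the bromodomain subunit of the non-canonical form (ncBAF), was at 19.6 FPKM in the KO library and 19.4 FPKM in the WT library. The other ncBAF subunits Gltscr1 and Gltscr1l had log2 ratios of 0.00 and -0.04.

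Actl6a encodes the actin-related protein BAF53a, which also belongs to TIP60 and INO80 remodellers. It was at 49.7 FPKM in the KO library and 56.3 FPKM in the WT library, a log2 ratio of -0.18. Its neuronal paralog Actl6b was at 0.07 and 0.18 FPKM, a few reads in each library. The highest ratios belonged to Actb and Dpf3. Actb, cytoplasmic actin and also a BAF subunit, was at 1544 FPKM in the KO library and 1066 FPKM in the WT library. Dpf3, a histone-reading subunit known with BAF60c from heart and muscle, was at 2.57 FPKM in the KO library and 1.64 FPKM in the WT library, a log2 ratio of 0.44 with the pseudocount. The ubiquitous paralog Dpf2 was at 25.65 FPKM in the KO library and 25.59 FPKM in the WT library.

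**Figure D3:**
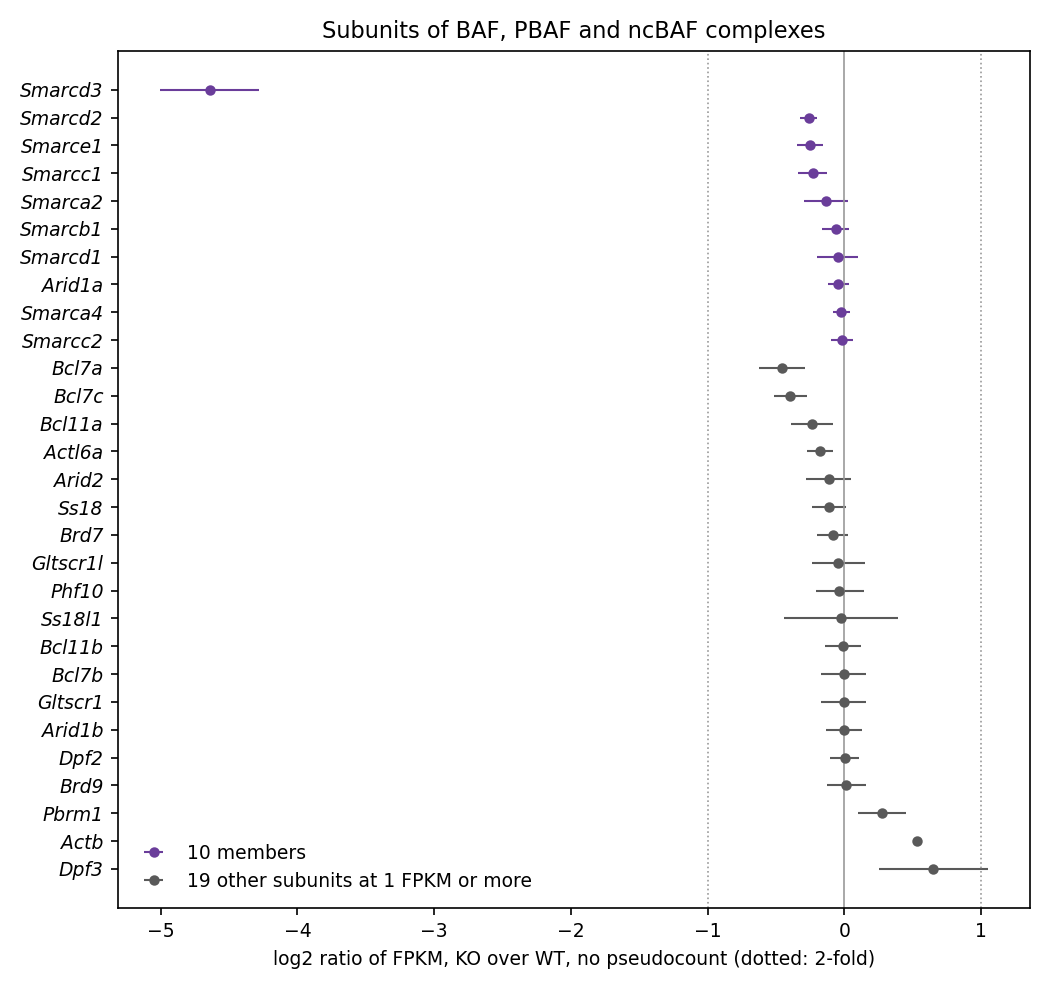
log2 ratios of FPKM, KO over WT, without a pseudocount, for the 10 genes (purple) and for 19 other subunit genes (grey), with approximate 95% counting intervals as bars and 2-fold limits as dotted lines. Smarcd3 lies at -4.64 and every other point lies within 2-fold, although the interval of Dpf3 passes the limit.

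The genes most like Smarcd3 were sought by the distance in log2(FPKM + 1) over the 2 libraries, which rests on only 2 points per gene. Near it lay Rest, at 1.41 FPKM in the KO library and 27.8 FPKM in the WT library (distance 1.12). Pparg was at 7.15 FPKM in the KO library and 43.6 FPKM in the WT library (distance 1.36). Prdm16 followed with 1.78 FPKM in the KO library and 20.9 FPKM in the WT library (distance 1.44). Lpl was at 1.23 FPKM in the KO library and 18.1 FPKM in the WT library, and Rxrg at 0.05 FPKM in the KO library and 41.95 FPKM in the WT library (both at distance 1.71). Of 2170 genes within 2-fold of Smarcd3 in the WT library, 14 were lower in the KO library by the 2-fold rule, against 49 of all 11784 genes (0.416%). These 14 include Smarcd3 itself, Pparg and Rxrg, and 16 of the 2170 were higher. As the set was chosen by WT level alone, no conclusion is drawn from these counts.

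**Figure D4:**
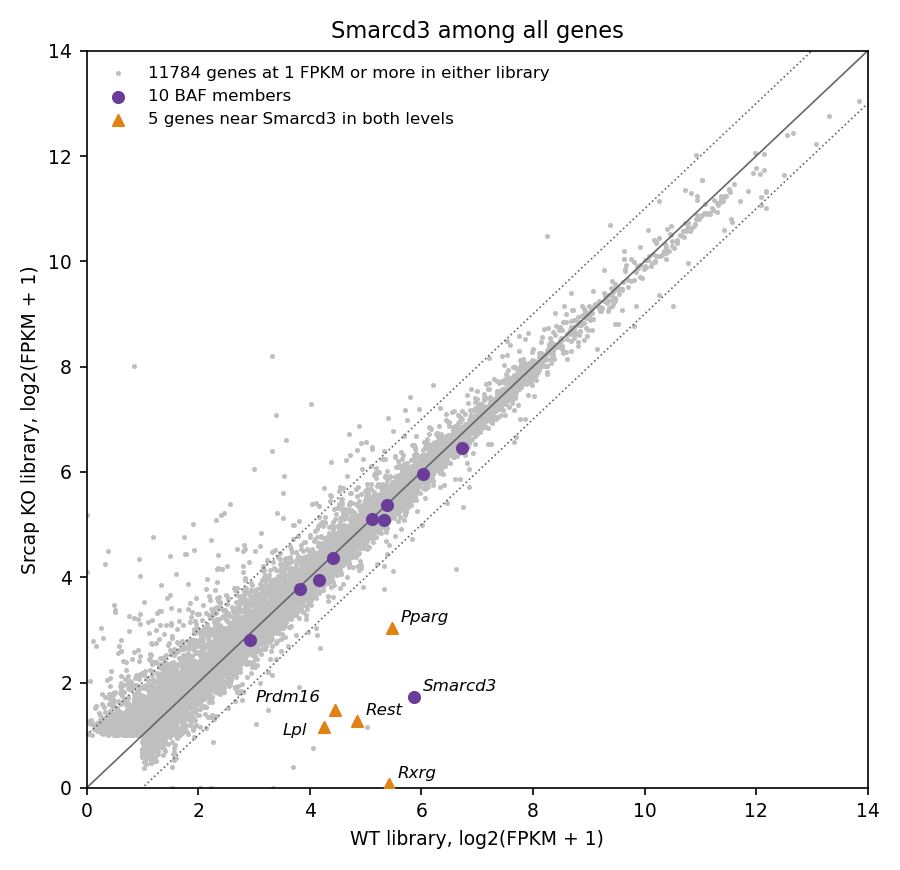
Each grey point is 1 of the 11784 genes that reached 1 FPKM in at least 1 library, with log2(FPKM + 1) in the WT library across and in the Srcap KO library upward, a line of equal levels and dotted 2-fold lines. Of the 10 BAF genes (purple), 9 lie near the line of equal levels. Smarcd3 lies below the lower dotted line, to the right of Rest, Pparg, Prdm16, Lpl and Rxrg (orange triangles).

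Nuclear receptors that BAF60 subunits are known to bind included 6 at 1 FPKM or more, of 8 listed. Of these 6, 1 was lower by the 2-fold rule, Pparg, and 0 were higher, with a median log2 ratio of 0.11. Over all 11784 genes, 0.416% were lower, 2.61% were higher and the median was 0.02. The receptor list was made with earlier results of these data known, and Pparg is also among the genes nearest to Smarcd3. No conclusion is therefore drawn from this count. Rxra was at 27.0 FPKM in the KO library and 23.0 FPKM in the WT library, Vdr at 105 FPKM in the KO library and 116 FPKM in the WT library, and the bile acid receptor gene Nr1h4 at 35.7 FPKM in the KO library and 21.1 FPKM in the WT library. Of 7 partners and targets of BAF60c in heart and muscle, 3 reached 1 FPKM and 0 of these were past 2-fold. Gata4, which is also an intestinal transcription factor, was at 36.9 FPKM in the KO library and 51.9 FPKM in the WT library. Tbx5 was at 0.05 FPKM in each library, and Myod1 was at 0.03 FPKM in the KO library and listed at 0 in the WT library.

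The genes beside Smarcd3 on chromosome 5 were compared as well. Of the 8 genes listed nearest to it, 4 on each side, 4 reached 1 FPKM and 0 of these were past 2-fold, against 3.03% of all genes. A count of 0 among 4 genes is near that share. Abcf2 was at 41.0 FPKM in the KO library and 41.7 FPKM in the WT library, and Nub1, the nearest gene beyond the start of Smarcd3, was at 19.3 FPKM in the KO library and 17.1 FPKM in the WT library. Rheb, which activates mTORC1, was at 33.5 FPKM in the KO library and 33.4 FPKM in the WT library. The overlapping Chpf2 had a log2 ratio of 0.24.

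**Figure D5:**
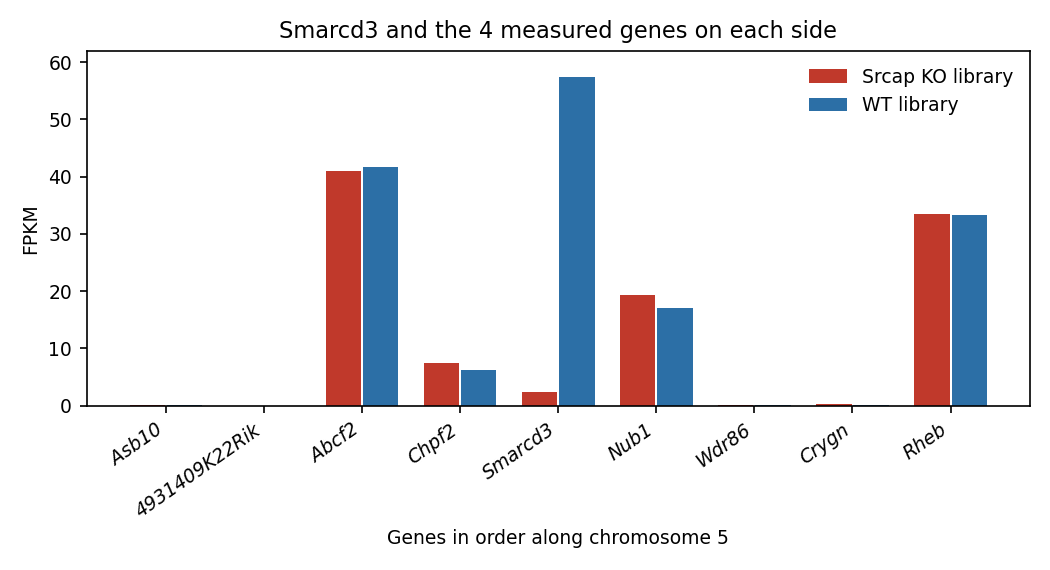
FPKM of Smarcd3 and the 4 measured genes on each side, in their order along chromosome 5, with the Srcap KO library (red) left of the WT library (blue). Only the bars of Smarcd3 differ by more than 2-fold among genes at 1 FPKM or more, at 2.31 and 57.4 FPKM.

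Markers of cell types also differed between the libraries, some lists lower and others higher in the KO library. Stem cell markers were lower in the KO library for 16 of 16 genes, 3 of them by the 2-fold rule. Their sums were 910 FPKM in the KO library and 1960 FPKM in the WT library. Olfm4 alone made up most of both sums, at 568 FPKM in the KO library and 1457 FPKM in the WT library. Over all 11784 genes, 5468 had a log2 ratio below 0 and 0.416% were lower past 2-fold. Paneth cell markers were lower for 10 of 10, and enteroendocrine markers for 8 of 10 with sums of 276 FPKM in the KO library and 466 FPKM in the WT library. Tuft cell markers summed to 25.6 FPKM in the KO library and 24.7 FPKM in the WT library, with 5 of 7 lower. None of these markers was at 0 in either library. The part of cell composition in the difference of Smarcd3 was not tested.

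Other markers were higher in the KO library. For comparison, 6290 of all 11784 genes had a log2 ratio above 0, and 2.61% were higher by the 2-fold rule. Enterocyte markers were higher for 12 of 12, with sums of 988 FPKM in the KO library and 604 FPKM in the WT library, and goblet cell markers for 6 of 7, with sums of 6213 FPKM in the KO library and 3715 FPKM in the WT library. Fibroblast markers were higher for 8 of 8, with sums of 194 FPKM in the KO library and 26.8 FPKM in the WT library. Endothelial markers (7 of 7), myeloid markers (9 of 9) and lymphocyte markers (9 of 9) were higher as well, at 33.0, 435 and 612 FPKM in the KO library against 13.0, 177 and 401 FPKM in the WT library. Mesothelial markers were higher for 6 of 6, although Krt19, which intestinal epithelium also expresses, made up most of their sums of 2584 FPKM in the KO library and 1820 FPKM in the WT library. By the 2-fold rule 5 of these 6 were higher, all but Krt19, and the median log2 ratio of the list was 2.53. Upk3b, for example, was at 26.1 FPKM in the KO library and 1.27 FPKM in the WT library. None of the markers in these 7 lists was at 0, and their part in the levels given above was not tested.

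Markers of muscle and nerve, in which Smarcd3 is known to be expressed, were at low levels in both libraries. The 12 muscle markers summed to 11.8 FPKM in the KO library and 7.12 FPKM in the WT library. Of these markers 9 were higher in the KO library, and Actc1 was at 0 in both libraries, Myh6 in the KO library and Myh7 in the WT library. The 10 neuron and glia markers were all lower in the KO library, at 14.3 FPKM in sum against 24.8 FPKM in the WT library. None was at 0. Of the 6 that could be called, 0 were lower by the 2-fold rule, against 0.416% of all 11784 genes. Without the pseudocount, Uchl1, Snap25 and Gfap were 2.03-, 2.12- and 2.12-fold lower, as was Sox10 at 2.19-fold with under 1 FPKM. Over all genes, 5468 had a log2 ratio below 0 and 6290 above 0. The part of either tissue in the levels of Smarcd3 was not tested.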

How the data were processed

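RNA of sorted cells was sequenced in 1 Srcap KO and 1 WT library as single-end 50 bp reads, per the labels. The authors deposited 1 FPKM table per library with values to 2 decimals, per the file headers. The submitters' processing notes list HISAT, Bowtie2, RSEM and the build mm10 with no versions or roles, and no source names the annotation. The tables were joined on Entrez identifiers, and log2 ratios were computed after adding 1 FPKM. The value of 1 read was fitted as the step that makes FPKM times length whole for short genes with 1 GENCODE M21 transcript. With it, 68.5% of 92 KO values and 70.8% of 89 WT values lay within 0.2 of a whole read, so read numbers are approximate. They use the length of the longest principal transcript. RefSeq GRCm38.p6 gave coordinates, neighbours and sequences. No test between genotypes was possible.

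The genes named were all members, other BAF subunits, the 4 measured neighbours per side, the 6 genes nearest to Smarcd3, and the leading genes of the listed receptors, partners and markers. A gene that this rule names is not reported here. Members and lists were chosen with earlier results of these data known. Alternatives were other pseudocounts, filters, a 3-fold rule and rescalings. The fold rule was tested on simulated data. Python 3.11.15, pandas 2.3.3, numpy 2.4.6 and scipy 1.17.1 were used.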

Additional observations from a re-analysis of the deposited data

How the results depend on the processing

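Smarcd3 was at least 2-fold lower in the KO library under every alternative run, with log2 ratios of -4.58 and -3.09 for pseudocounts of 0.1 and 5 FPKM. Its share of the BAF60 sum was 3.15% in the KO library after adding 1 FPKM to each paralog. For the other 9 genes, 54 alternative values ran from -0.31 to 0.07, 50 of them within counting error of the value as reported. The count of genes lower in the KO library was 110 and 23 with the pseudocounts, 30 with a minimum of 10 FPKM and 16 under a 3-fold rule. The count of genes higher was 656, 108, 121 and 99 under the same settings, and 472 after rescaling to a sum of 1000000. Of the 19 other subunits, 0 passed the fold under any setting run. The median of genes at 10 FPKM or more lay between -0.07 and 0.07 under all scalings. No paired analysis was possible because each genotype has 1 library. Depth limits Actl6b (about 2 reads in KO and 5 in WT) and Dpf1 (about 8 and 2) most. Dpf3 (about 135 and 89 reads) is limited less, and the KO level of Smarcd3 rests on about 67 reads.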
